A study of Mus musculus with 2 samples.

Results

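The genes described here are 10 genes of mouse intestinal lymphocytes grouped as co-inhibitory receptors other than Ctla4: Pdcd1, Lag3, Havcr2, Tigit, Btla, Cd160, Cd244a, Nt5e, Cd200r1 and Cd200r4. They were chosen by symbol and make up 10 of the 32285 genes counted. Not all encode inhibitory receptors: Nt5e encodes an ectoenzyme, and Cd200r4 a paired receptor that signals through the adaptor DAP12. The product of Cd244a can activate or inhibit. Immune cells with the green Il23r reporter (genotype Il23r-eGFP) were sorted as live eGFP+ cells from the small intestine after Peyer's patches and epithelium had been removed, and their RNA was counted with 10x Genomics droplets. The IL-23 library came from cells given recombinant mouse IL-23 for 2 h, and the other, called unstimulated, carries no IL-23 in its group label; all cells of both libraries carry the reporter allele. The protocol text of both mentions the cytokine, so the difference in treatment rests on that label, and the number, age and pooling of the animals are not given. With 1 library per group there is no replicate check, no p-value can be formed, and every interval below covers counting error only.

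Co-inhibitory receptors are surface proteins that dampen lymphocyte activation, many of them through tyrosine motifs in their tails that recruit the phosphatases SHP-1 and SHP-2. They are best known from T cells, where they are induced by activation and accumulate on chronically stimulated cells. Innate lymphoid cells of the gut, which lack antigen receptors, also carry several of them. Group 3 innate lymphoid cells (ILC3s) are the main lymphocytes with the IL-23 receptor in the small intestine, beside gamma delta and alpha beta T cells.

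The promoters of 3 members are shown because Cd244a was the 1 member at least 1.5-fold higher in the IL-23 library in all 3 classes of CD3-negative cells, Pdcd1 set Ccr6+ cells over 10-fold apart from Ncr1+ cells, and Havcr2 holds the same motif as Cd244a. Each line gives the 250 bases before the RefSeq gene start on the gene's own strand (GRCm38.p6), with matches to a STAT motif (TTCNNNGAA) or an AP-1 motif (TGANTCA) in capitals. The stretches are chr1:171558943-171559192 on the plus strand for Cd244a, chr11:46454681-46454930 on the plus strand for Havcr2 and chr1:94052554-94052803 on the minus strand for Pdcd1.
Cd244a: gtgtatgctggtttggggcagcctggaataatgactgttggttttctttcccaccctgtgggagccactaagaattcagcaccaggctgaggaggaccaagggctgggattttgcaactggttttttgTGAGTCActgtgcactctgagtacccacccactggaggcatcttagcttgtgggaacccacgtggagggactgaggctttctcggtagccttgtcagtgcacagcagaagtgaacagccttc
Havcr2: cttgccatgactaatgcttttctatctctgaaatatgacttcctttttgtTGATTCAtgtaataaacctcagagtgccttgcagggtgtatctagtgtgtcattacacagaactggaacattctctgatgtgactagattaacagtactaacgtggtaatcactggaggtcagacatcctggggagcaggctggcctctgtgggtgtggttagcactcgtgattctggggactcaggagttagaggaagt
Pdcd1: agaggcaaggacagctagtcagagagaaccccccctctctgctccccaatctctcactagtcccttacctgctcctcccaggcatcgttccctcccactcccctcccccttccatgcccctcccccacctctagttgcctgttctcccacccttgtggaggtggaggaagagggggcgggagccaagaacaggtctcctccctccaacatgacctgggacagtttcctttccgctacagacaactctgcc
The AP-1 match of Cd244a reads TGAGTCA and begins 122 bases before the gene start, and that of Havcr2 reads TGATTCA and begins 200 bases before it. A window of 250 bases before to 50 bases after the start was present for 8 of the 10 members, in 9 windows because Cd160 has a pair of them; Lag3 and Cd200r1 had none in the table used. Searched on both strands, the STAT motif was found in 1 window, of Cd160, and the AP-1 motif in the windows of Cd244a and Havcr2. The letters AGGTGTGA, bound by T-box factors, were in none of the 9. Of 32851 promoter windows of the same length, 8.30% held the STAT letters, 7.81% the AP-1 letters and 1.28% the T-box letters. A match of letters is a description and not a site of binding.

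Cells were divided by their own transcripts once barcodes with under 500 genes, or with over 10% of their UMIs (unique molecular identifiers, the counted molecules) from mitochondrial genes, had been left out. That kept 9251 cells of the IL-23 library and 10790 of the unstimulated library. Cells without a UMI of Cd3e, Cd3d or Cd3g formed 3 classes: Ncr1+ cells (1258 in the IL-23 library and 1052 in the unstimulated library), Ccr6+ cells (1464 with IL-23 and 1535 unstimulated) and cells with neither gene (5802 with IL-23 and 7440 unstimulated), called Neither. Cells with Cd3e and Trdc formed the Trdc T class (221 with IL-23 and 232 unstimulated), and cells with Cd3e and Trac the Trac T class (99 with IL-23 and 163 unstimulated). Cells with both genes of a pair and all others were left out of the classes, and 25 kept barcodes occurred in both libraries. Median UMIs per cell ran between 5698.5 and 8414 over the 5 classes of the IL-23 library and between 4675.5 and 6793 in the unstimulated library, so depth differed along with the treatment. Neither cells had the lowest median in each library. A count of 0 UMIs does not show that a transcript is absent, so this class may include cells whose Ncr1 or Ccr6 was not counted. Il7r, a receptor gene of innate lymphoid cells that T cells share, had 232 to 784 CPM (UMIs per 1000000 UMIs of the class in that library) in the 5 classes of the IL-23 library and 276 to 914 CPM in those of the unstimulated library. Kit, a receptor gene of ILC3s, had 311 to 332 CPM in the 3 CD3-negative classes of the IL-23 library and 504 to 523 CPM in those of the unstimulated library. Of the other ILC3 markers in Ncr1+ cells, Il22 (29969.5 CPM with IL-23 and 4722 CPM unstimulated) and Il1r1 (369.6 CPM with IL-23 and 42.5 CPM unstimulated) were over 1.5-fold higher with IL-23, Gata3 was lower, as was Kit, and Id2 was within 1.5-fold. Among the NK cell and ILC1 markers, Eomes did not exceed 0.202 CPM in any class and Klra4 and Klra8 were at 0 or 1 UMI, but the granzyme gene Gzma had 49.5 CPM with IL-23 and 1.89 CPM unstimulated in Ncr1+ cells, and 22.1 CPM with IL-23 and 0.757 CPM unstimulated in Neither cells. The 5 genes of that list summed to between 2.87 and 199 CPM over the classes of the IL-23 library and between 0.224 and 191 CPM in the unstimulated library, and Ncr1+ cells without a UMI of Gzma had 48.5 CPM of Cd244a in the IL-23 library and 7.46 CPM in the unstimulated library. The macrophage marker Lyz2 did not exceed 2.05 CPM. The 6 macrophage or dendritic markers, Lyz2 among them, summed to between 3.44 and 9.01 CPM over the classes of the IL-23 library. In the unstimulated library they summed to between 4.80 and 11.5 CPM. The plasma-cell transcript Jchain was uneven: it had 0.908 CPM in Ncr1+ cells of the IL-23 library, against 207 CPM in those of the unstimulated library, and 242 CPM with IL-23 against 6.04 CPM unstimulated in Ccr6+ cells. With cells carrying B, plasma or macrophage markers left out, the log2 ratio of Cd244a was 2.67 in Ncr1+ cells and 1.81 in Ccr6+ cells, beside 2.66 and 1.94 with them.

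The members differed in the classes that held most of them, and the highest class of each was the same in both libraries. Pdcd1 was highest in Trdc T cells, while Lag3, Havcr2, Tigit, Btla and Nt5e were highest in Trac T cells, and these 6 had their highest level in a T class in both libraries. Cd160, Cd244a, Cd200r1 and Cd200r4 were highest in Ncr1+ cells in both. Some of these first places lay within counting error of the second: that of Pdcd1 over Ccr6+ cells in the IL-23 library (1.11-fold, 0.965 to 1.27), that of Lag3 over Ncr1+ cells in the IL-23 library (a ratio with an interval of 0.657 to 3.04), that of Cd160 over Trdc T cells in the unstimulated library (1.10-fold, 0.734 to 1.70) and that of Cd200r1 over Trdc T cells in both. Levels are compared within a gene only, between classes or libraries.

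**Figure D1:**
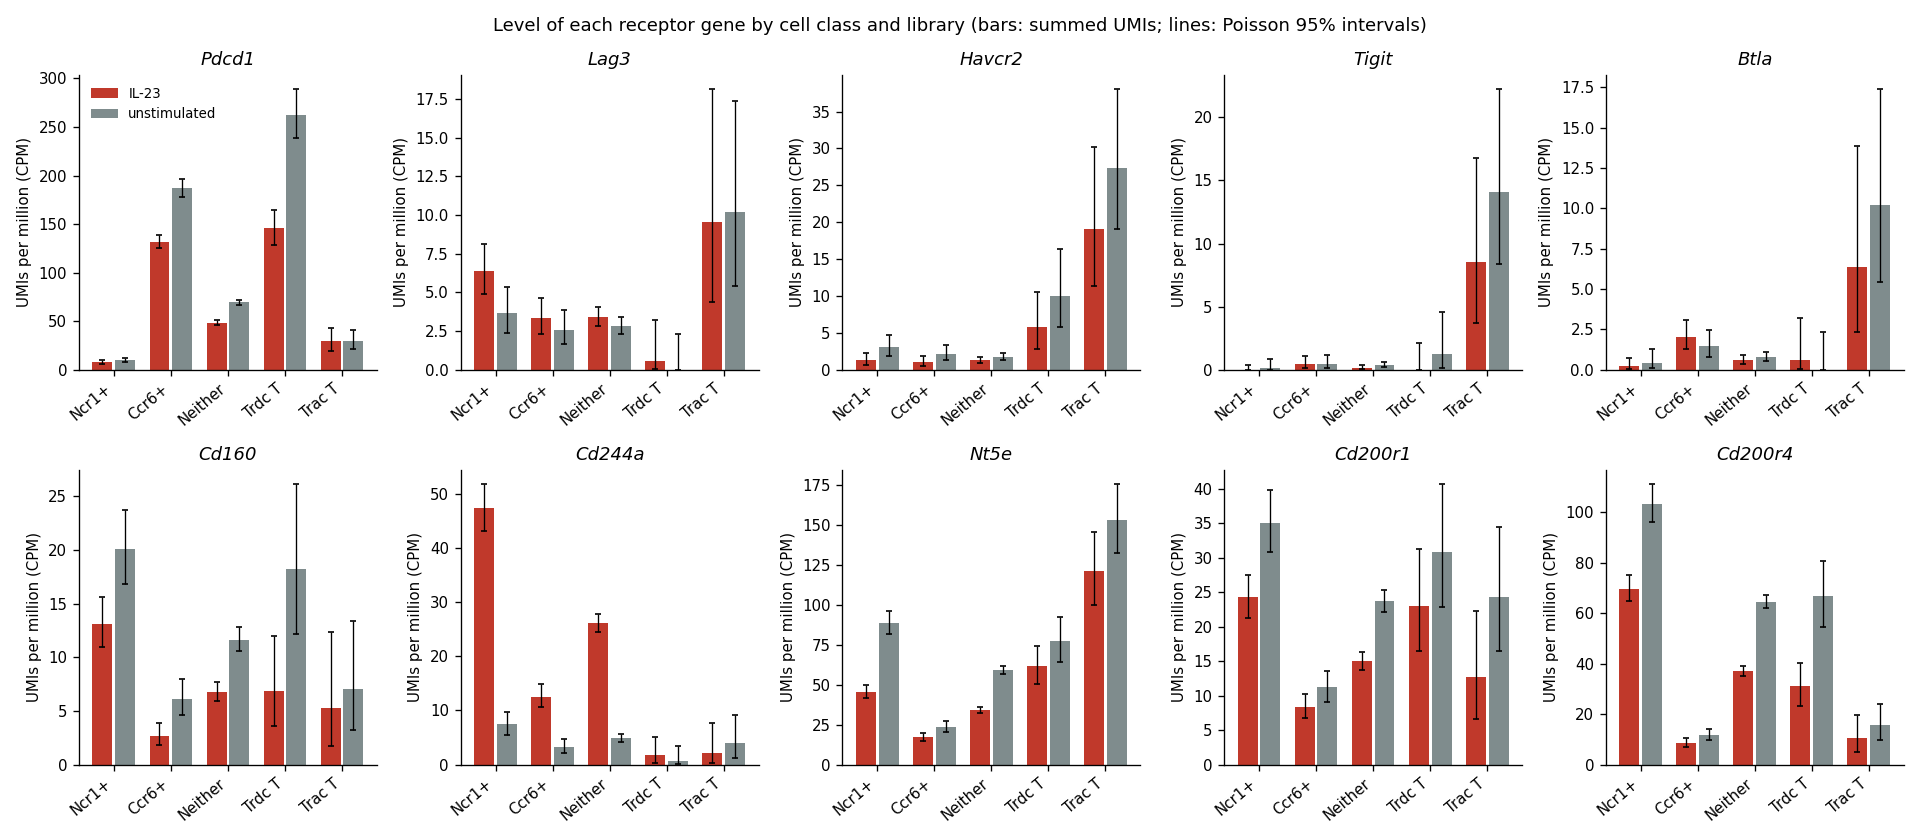
Level of each of the 10 genes in the 5 cell classes, in CPM, with the IL-23 library in red to the left of the unstimulated library in grey and Poisson 95% intervals as lines; each panel has its own axis from 0. Cd244a stands out with 47.4 CPM in Ncr1+ cells of the IL-23 library, against 7.42 CPM in those of the unstimulated library, while most other bars are lower in the IL-23 library.

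Between the libraries, most measured members were somewhat lower with IL-23 and Cd244a was much higher. A gene was called measured in a class when either library reached 10 CPM and the sum of both reached 20 UMIs, and a ratio of 1.5-fold was counted as a size, with no test behind it. Of the 50 pairs of a member and a class, 29 were measured: 3 were at least 1.5-fold higher, 12 at least 1.5-fold lower and 14 in between. Over all genes measured in the same classes, 5.65% of the gene and class pairs were at least 1.5-fold higher and 7.75% at least 1.5-fold lower. All 3 higher pairs were Cd244a. In all, 25 of the 29 pairs had a log2 ratio below 0, where between 56.8% and 70.8% of all measured genes of a class did.

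Class by class, 1 of 5 measured members was higher (Cd244a) and 2 were lower (Cd160 and Nt5e) in Ncr1+ cells, where 5.18% of 6890 measured genes were higher and 7.26% lower. In Ccr6+ cells 1 of 5 was higher and 0 were lower, beside 2.87% and 4.32% of 7108 genes. In Neither cells 1 of 6 was higher and 4 were lower (Cd160, Nt5e, Cd200r1 and Cd200r4), beside 4.09% and 3.89% of 6967 genes. The T classes had no higher member: 4 of 6 were lower in Trdc T cells (Pdcd1, Havcr2, Cd160 and Cd200r4), where 8.01% of 7480 genes were higher and 10.6% lower, and 2 of 7 were lower in Trac T cells (Tigit and Cd200r1), where 7.83% of 7468 genes were higher and 12.2% lower. The median log2 ratio of the measured members was -0.57 in Ncr1+ cells, -0.43 in Ccr6+ cells, -0.72 in Neither cells, -0.82 in Trdc T cells and -0.50 in Trac T cells. Some alternative settings placed 4 of the 12 lower pairs inside 1.5-fold, with these log2 ratios nearest to 0: Cd160 in Ncr1+ cells (-0.48) and Cd200r1 in Neither cells (-0.57) under TMM scaling, Havcr2 in Trdc T cells (-0.30) without the cells above the 95th percentile of UMIs, and Tigit in Trac T cells (-0.02) with 2 UMIs of the class gene required. Over all measured genes the median log2 ratios of the 5 classes lay between -0.12 and -0.06. The members share 1 pair of libraries, so these counts are not independent of each other.

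**Figure D2:**
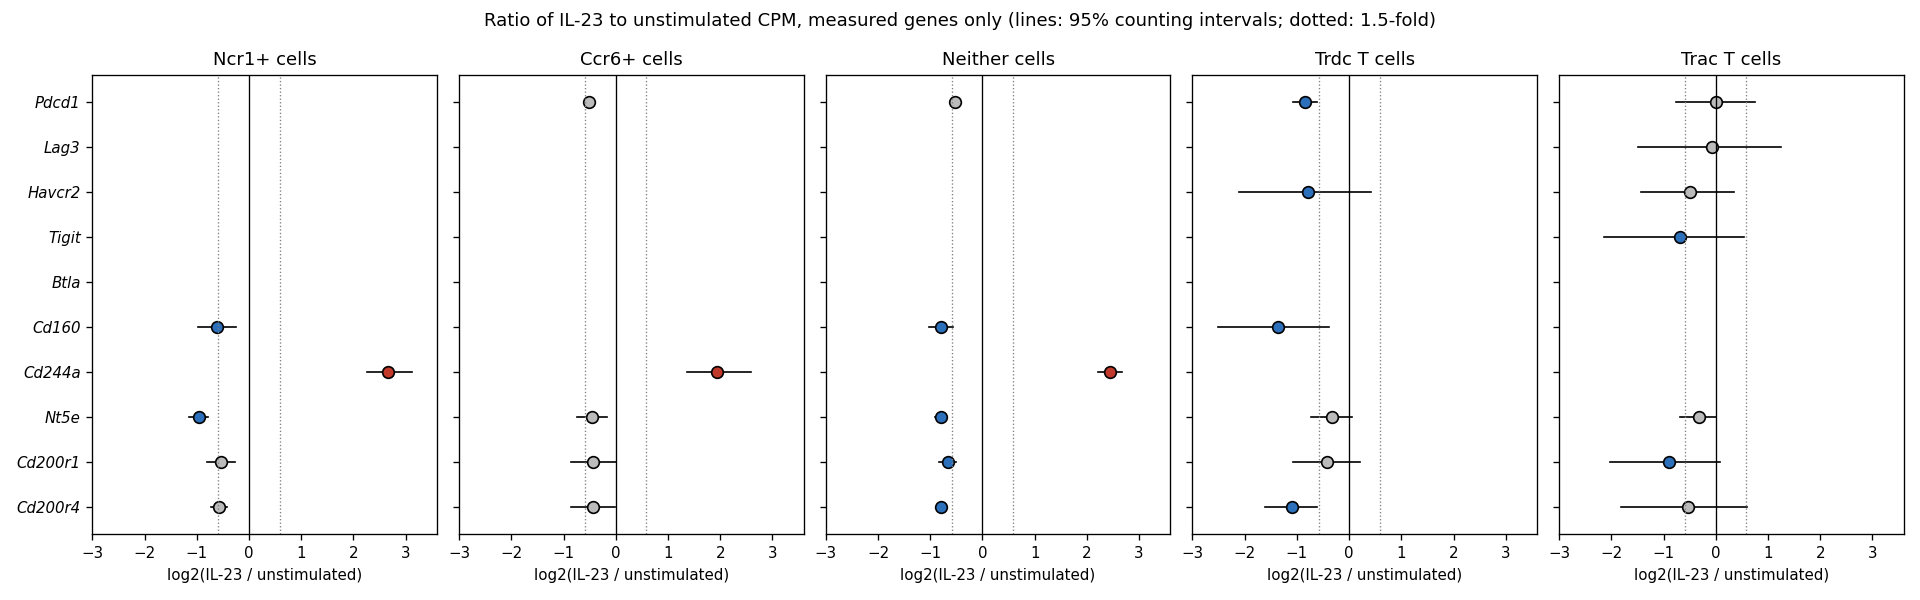
Log2 ratio of the IL-23 to the unstimulated CPM for each measured gene in each cell class, with exact 95% counting intervals as lines and 1.5-fold marked by dotted lines; red points are at least 1.5-fold higher with IL-23, blue points at least 1.5-fold lower and grey points between. The red points are Cd244a in Ncr1+, Ccr6+ and Neither cells, at 2.66, 1.94 and 2.44, and genes with no point were not measured in that class.

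Pdcd1 encodes PD-1, the receptor for PD-L1 and PD-L2 (chr1:94038305-94052553, minus strand, GRCm38). In Trdc T cells it had 146 CPM (interval 128 to 165) in the IL-23 library, against 263 CPM (238 to 289) in the unstimulated library, a log2 ratio of -0.85 (-1.08 to -0.62). In Ccr6+ cells it had 132 CPM in the IL-23 library, against 187 CPM in the unstimulated library, and in Neither cells 48.5 CPM with IL-23 against 69.5 CPM unstimulated. The intervals of the libraries were apart in these 3 classes, with log2 ratios of -0.51 in Ccr6+ cells and -0.52 in Neither cells that stayed inside 1.5-fold. Ncr1+ cells had 7.87 CPM in the IL-23 library and 9.75 CPM in the unstimulated library, from 78 UMIs with IL-23 and 67 UMIs unstimulated. Ccr6+ cells thus stood 16.7-fold (13.3 to 21.3) above Ncr1+ cells in the IL-23 library and 19.2-fold (15.0 to 24.9) above them in the unstimulated library. Trac T cells had 29.7 CPM in both libraries, a log2 ratio of 0.01 (-0.76 to 0.74), and 9 of the 28 UMIs in the IL-23 library came from 1 cell.

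Further transcripts of the same cells divided Pdcd1 again. Among Ccr6+ cells, those with a UMI of Cd4 (252 cells with IL-23 and 224 cells unstimulated) had 183 CPM in the IL-23 library and 256 CPM in the unstimulated library, and those without had 118 CPM with IL-23 and 173 CPM unstimulated. Among Neither cells, those with Cd4 had 163 CPM in the IL-23 library and 211 CPM in the unstimulated library, against 44.1 CPM with IL-23 and 63.6 CPM unstimulated in those without. Cells of the Neither class with Tbx21, the gene of the type 1 factor T-bet, were at the other end, with 4.41 CPM in the IL-23 library and 6.88 CPM in the unstimulated library, against 51.0 CPM with IL-23 and 72.6 CPM unstimulated in those without. Neither cells with a UMI of Ctla4 (1319 cells with IL-23 and 343 cells unstimulated) had 13.4 CPM with IL-23 and 21.2 CPM unstimulated, below the 61.6 CPM with IL-23 and 72.7 CPM unstimulated of those without. Thus Pdcd1 was highest in CD3-negative cells with Cd4 or Ccr6 and lowest in those with Ncr1, Tbx21 or Ctla4, in both libraries. Trdc T cells with the V segment gene Trdv4 (129 cells with IL-23 and 148 cells unstimulated) had 142 CPM in the IL-23 library and 322 CPM in the unstimulated library, and those without had 151 CPM with IL-23 and 157 CPM unstimulated. Whether the library ratio differs between these subsets was not tested.

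**Figure D3:**
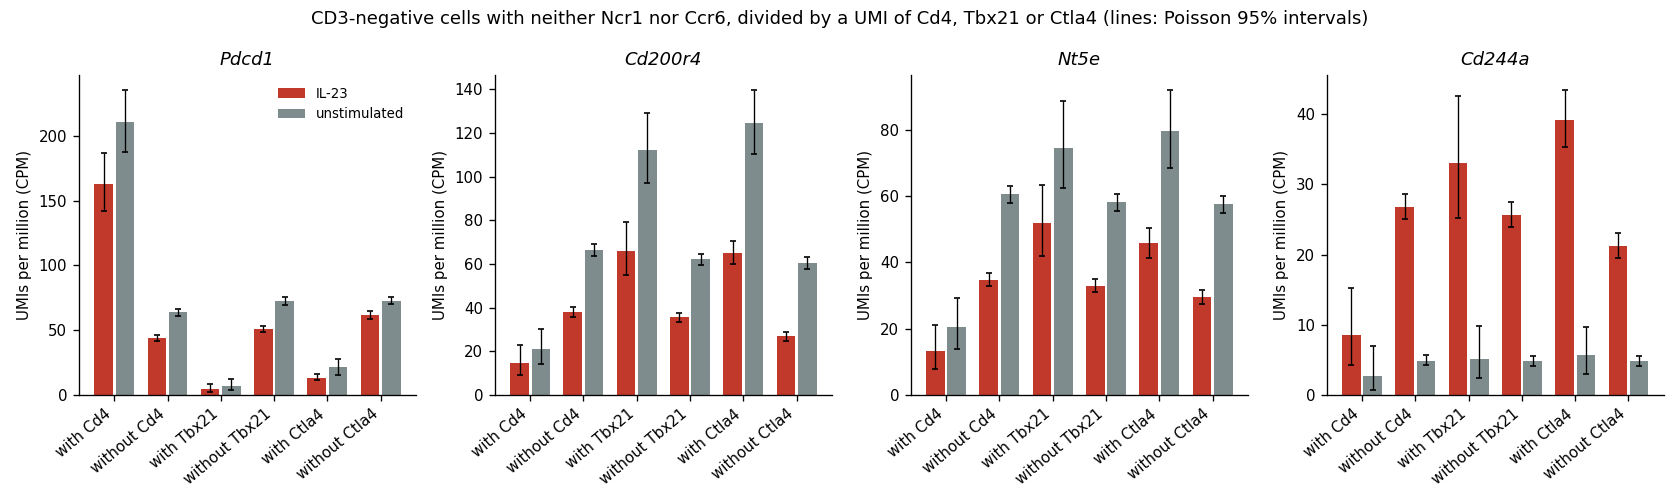
Levels of Pdcd1, Cd200r4, Nt5e and Cd244a, in CPM, in CD3-negative cells with neither Ncr1 nor Ccr6, divided by a UMI of Cd4, Tbx21 or Ctla4, with the IL-23 library left of the unstimulated library and Poisson 95% intervals as lines. Pdcd1 is high with Cd4 (163 CPM with IL-23 and 211 CPM unstimulated) and low with Tbx21 (4.41 CPM with IL-23 and 6.88 CPM unstimulated), while Cd200r4 runs the other way (14.8 CPM with IL-23 and 21.1 CPM unstimulated with Cd4, 66.2 CPM with IL-23 and 112 CPM unstimulated with Tbx21).

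Cd244a encodes CD244 or 2B4, a receptor of the SLAM family that binds CD48 and can activate or inhibit NK cells depending on the adaptors in the cell (chr1:171559193-171609746, plus strand). In Ncr1+ cells it had 47.4 CPM (43.2 to 51.9) in the IL-23 library, from 470 UMIs, against 7.42 CPM (5.52 to 9.75) in the unstimulated library, from 51 UMIs, which is 6.34-fold (4.78 to 8.71). In Neither cells it had 26.1 CPM in the IL-23 library and 4.81 CPM in the unstimulated library, which is 5.41-fold (4.61 to 6.40). In Ccr6+ cells it had 12.6 CPM in the IL-23 library, against 3.24 CPM in the unstimulated library, which is 3.83-fold (2.58 to 6.01). The intervals of the libraries did not overlap in any of these 3 classes. The T classes held almost none of it: 3 UMIs in the IL-23 library and 1 in the unstimulated library among Trdc T cells, a ratio of 2.13-fold with an interval of 0.220 to 144. Among Trac T cells there were 2 UMIs in the IL-23 library, in 1 cell, and 5 in the unstimulated library.

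The share of cells with a UMI of Cd244a moved with the level. In Ncr1+ cells it was 22.7% (20.4% to 25.2%) in the IL-23 library and 4.09% (2.97% to 5.47%) in the unstimulated library, at median depths of 7286.5 UMIs with IL-23 and 5925.5 UMIs unstimulated. In Trdc T cells of nearly the same depth, 7111 UMIs with IL-23 and 6154 UMIs unstimulated, the shares were 1.36% with IL-23 and 0.431% unstimulated. After every cell had been thinned to 2000 UMIs, the Ncr1+ shares were 7.78% in the IL-23 library and 0.670% in the unstimulated library, those of Neither cells 3.81% with IL-23 and 0.848% unstimulated, and those of Ccr6+ cells 2.08% with IL-23 and 0.528% unstimulated. Ncr1+ cells with a UMI of Ctla4 had 48.5 CPM in the IL-23 library and 6.76 CPM in the unstimulated library, and those without had 46.2 CPM with IL-23 and 7.52 CPM unstimulated, with overlapping intervals within each library. Among Neither cells those with Ctla4 had 39.2 CPM in the IL-23 library, against 5.62 CPM in the unstimulated library, and those without had 21.2 CPM with IL-23 and 4.76 CPM unstimulated. The gene overlaps Ly9, another SLAM family gene, on the opposite strand, and whether counting used strand is not given in the sources used here; Ly9 itself had 6.16 CPM in Ncr1+ cells of the IL-23 library and 10.3 CPM in those of the unstimulated library.

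**Figure D4:**
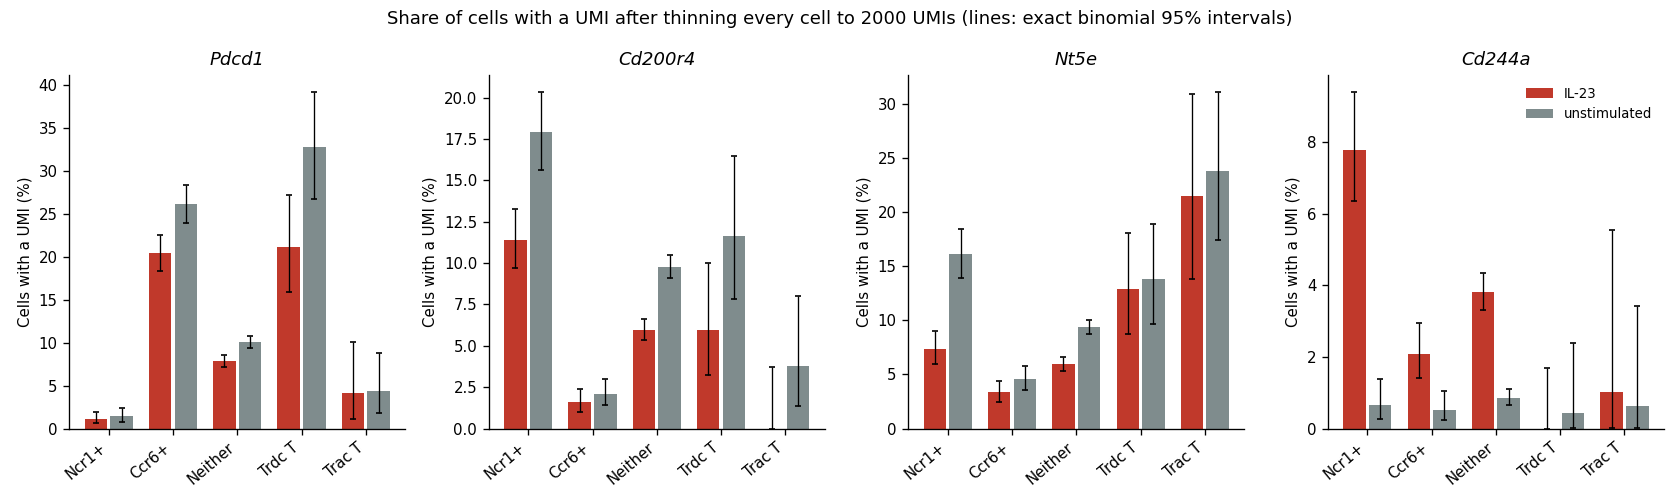
Share of cells with at least 1 UMI of Pdcd1, Cd200r4, Nt5e or Cd244a after every cell was thinned to 2000 UMIs, in percent of the cells of each class, with the IL-23 library left of the unstimulated library and exact binomial 95% intervals as lines. For Cd244a the Ncr1+ share is 7.78% in the IL-23 library and 0.670% in the unstimulated library, while Pdcd1 and Cd200r4 peak in different classes.

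Cd200r1 and Cd200r4 lie beside each other on chromosome 16 (chr16:44765736-44794978 and chr16:44811733-44839150, both plus strand) and belong to the receptor family of the glycoprotein CD200. CD200R1 is the inhibitory member, and mouse CD200R4 is a paired member that signals through the adaptor DAP12, the product of Tyrobp. Cd200r4 had 69.8 CPM (64.6 to 75.2) in Ncr1+ cells of the IL-23 library and 103 CPM (96.0 to 111) in those of the unstimulated library, a log2 ratio of -0.57. In Neither cells it had 37.1 CPM in the IL-23 library, against 64.4 CPM in the unstimulated library, a log2 ratio of -0.80. In Trdc T cells it had 31.0 CPM with IL-23 against 66.7 CPM unstimulated, a log2 ratio of -1.10 (-1.61 to -0.62). Ccr6+ cells had the lowest levels, 8.69 CPM in the IL-23 library and 11.7 CPM in the unstimulated library, so Ncr1+ cells stood 8.03-fold (6.46 to 10.1) above them in the IL-23 library and 8.81-fold (7.17 to 10.9) in the unstimulated library. Within Neither cells Cd200r4 ran opposite to Pdcd1: cells with Tbx21 had 66.2 CPM in the IL-23 library and 112 CPM in the unstimulated library, and cells with Cd4 had 14.8 CPM with IL-23 and 21.1 CPM unstimulated.

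Cd200r1 was likewise highest in Ncr1+ and lowest in Ccr6+ cells, with smaller differences between them. It had 24.2 CPM in Ncr1+ cells of the IL-23 library and 35.1 CPM in those of the unstimulated library, against 8.32 CPM with IL-23 and 11.2 CPM unstimulated in Ccr6+ cells, so Ncr1+ cells were 2.91-fold higher with IL-23 and 3.14-fold higher unstimulated. In Neither cells it had 15.0 CPM in the IL-23 library, against 23.7 CPM in the unstimulated library, a log2 ratio of -0.66 (-0.82 to -0.50). In Trdc T cells it had 22.9 CPM in the IL-23 library and 30.8 CPM in the unstimulated library, and the order of these cells and Ncr1+ cells was within counting error in both libraries. In Trac T cells it had 12.7 CPM with IL-23 against 24.3 CPM unstimulated, from 12 UMIs with IL-23 and 31 UMIs unstimulated, and the interval of the log2 ratio of -0.89 reached from -2.02 to 0.07. The transcripts of Cd200r1 and Cd200r4 share 40 of their stretches of 50 bases, which are 1.16% of those of Cd200r1 and 1.96% of those of Cd200r4, and Cd200r4 shares 61 with Cd200r2, so a small part of the reads may be split among them.

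Nt5e encodes CD73, the ectoenzyme that turns extracellular AMP into adenosine (chr9:88327197-88372092, plus strand). In Trac T cells it had 121 CPM (99.9 to 145) in the IL-23 library and 153 CPM (132 to 176) in the unstimulated library, and the intervals overlapped. In Ncr1+ cells it had 45.5 CPM in the IL-23 library, against 88.7 CPM in the unstimulated library, a log2 ratio of -0.96 (-1.14 to -0.78). In Neither cells it had 33.9 CPM with IL-23 against 58.8 CPM unstimulated, a log2 ratio of -0.80. These were the lower pairs for Nt5e; in Ccr6+ cells, which held the least, it had 17.3 CPM in the IL-23 library and 23.7 CPM in the unstimulated library, and in Trdc T cells 61.4 CPM with IL-23 and 77.3 CPM unstimulated. Trac T cells stood 2.66-fold (2.15 to 3.27) above Ncr1+ cells in the IL-23 library and 1.72-fold (1.46 to 2.02) above them in the unstimulated library. The share of Ncr1+ cells with a UMI of Nt5e, thinned to 2000 UMIs, was 7.38% in the IL-23 library and 16.1% in the unstimulated library. Of the 10 genes of the adenosine pathway, 2 were measured in Ncr1+ cells: Nt5e itself and Ada, which encodes adenosine deaminase, with 22.2 CPM in the IL-23 library and 14.5 CPM in the unstimulated library. Entpd1, whose product CD39 supplies AMP to CD73, did not exceed 2.11 CPM in any class of either library.

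Cd160 and Btla encode receptors that both bind HVEM, the product of Tnfrsf14 (chr3:96798763-96829351, minus strand, and chr16:45224315-45257670, plus strand). Cd160 had 13.1 CPM (11.0 to 15.6) in Ncr1+ cells of the IL-23 library and 20.1 CPM (16.9 to 23.7) in those of the unstimulated library, a log2 ratio of -0.61. In Neither cells it had 6.73 CPM in the IL-23 library, against 11.6 CPM in the unstimulated library, and in Trdc T cells 6.88 CPM with IL-23 against 18.2 CPM unstimulated. The log2 ratio was -0.79 in Neither cells and -1.37 (-2.51 to -0.39) in Trdc T cells, the lowest of the measured pairs, from 12 UMIs with IL-23 and 29 UMIs unstimulated. Ccr6+ cells held 2.68 CPM in the IL-23 library and 6.15 CPM in the unstimulated library, under the 10 CPM required. Cd160 overlaps Pdzk1 on the opposite strand. Btla was measured in no class: it reached 6.37 CPM in Trac T cells of the IL-23 library and 10.2 CPM in those of the unstimulated library, from 6 UMIs with IL-23 and 13 UMIs unstimulated. In Neither cells Btla had 0.578 CPM with IL-23 and 0.784 CPM unstimulated, so that Trac T cells stood 11.0-fold (3.63 to 28.5) above them in the IL-23 library and 13.0-fold (6.19 to 25.8) in the unstimulated library. Tnfrsf14 itself did not exceed 3.19 CPM.

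Lag3, Havcr2 and Tigit, the receptor genes most often used with Pdcd1 to mark exhausted T cells, were scarce in CD3-negative cells. Havcr2 encodes TIM-3 (chr11:46454935-46481255, plus strand) and had 19.1 CPM (11.3 to 30.2) in Trac T cells of the IL-23 library and 27.4 CPM (19.1 to 38.1) in those of the unstimulated library. In Trdc T cells it had 5.74 CPM with IL-23 and 10.1 CPM unstimulated, from 10 UMIs with IL-23 and 16 UMIs unstimulated, and the interval of the log2 ratio of -0.78 ran from -2.11 to 0.42. In Ncr1+ cells it had 1.31 CPM in the IL-23 library and 3.05 CPM in the unstimulated library, from 13 UMIs with IL-23 and 21 UMIs unstimulated, a ratio of 0.436 (0.198 to 0.899) at levels under the 10 CPM required. In Neither cells it had 1.27 CPM in the IL-23 library and 1.73 CPM in the unstimulated library, so Trac T cells were 15.0-fold (8.18 to 26.6) above them in the IL-23 library and 15.8-fold (10.2 to 24.3) in the unstimulated library. Tigit, the gene of a receptor for the nectin-like ligand CD155 (chr16:43648867-43664146, minus strand), had 8.50 CPM in Trac T cells of the IL-23 library and 14.1 CPM in those of the unstimulated library, from 8 UMIs with IL-23 and 18 UMIs unstimulated. Its log2 ratio there of -0.68 had an interval of -2.14 to 0.54. Tigit was at or below 1.26 CPM in the other classes. No Ncr1+ cell of 1258 in the IL-23 library held a UMI, which allows a share of cells with a UMI of up to 0.238% by counting error alone.

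Lag3, whose product binds MHC class II (chr6:124904361-124911705, minus strand), had 9.56 CPM (4.37 to 18.1) in Trac T cells of the IL-23 library and 10.2 CPM (5.42 to 17.4) in those of the unstimulated library, the only class where it was measured. In Ncr1+ cells it had 6.36 CPM (4.89 to 8.14) in the IL-23 library, from 63 UMIs, and 3.64 CPM (2.35 to 5.37) in the unstimulated library, from 25 UMIs. That ratio was 1.73-fold (1.08 to 2.90), at levels under the 10 CPM required. Ccr6+ cells had 3.33 CPM with IL-23 and 2.57 CPM unstimulated, a ratio of 1.28-fold (0.746 to 2.29), and Neither cells 3.41 CPM with IL-23 and 2.81 CPM unstimulated, a ratio of 1.21-fold (0.924 to 1.59), and both intervals include 1. Trdc T cells held 1 UMI of Lag3 in the IL-23 library and 0 in the unstimulated library, so no fold is given. In Trac T cells 7 of the 9 UMIs of the IL-23 library and all 13 of the unstimulated library lay in cells that also held Cd4. The 9 UMIs came from 7 cells and the 13 from 8 cells, 1 of which held 4 of them.

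After thinning to 2000 UMIs, 30.7% (28.2% to 33.4%) of Ncr1+ cells in the IL-23 library and 40.0% (37.0% to 43.0%) in the unstimulated library had a UMI of at least 1 of the 10 genes. The shares were 28.5% with IL-23 and 34.3% unstimulated in Ccr6+ cells, 25.7% with IL-23 and 32.0% unstimulated in Neither cells, 39.9% with IL-23 and 54.3% unstimulated in Trdc T cells, and 27.6% with IL-23 and 41.9% unstimulated in Trac T cells. In every class the share was lower in the IL-23 library, with intervals that overlapped in Trac T cells and in no other class. Not all of the 10 genes fell: the thinned Cd244a share in Ncr1+ cells was 7.78% with IL-23 and 0.670% unstimulated. Between 56.8% and 70.8% of all measured genes of a class had a log2 ratio below 0. No such joint share was worked out for other groups of genes. In the Neither class Pdcd1 was seldom counted in the same cell as Cd200r4 or Nt5e. There a UMI of Cd200r4 was found in 1.39% (0.510% to 2.99%) of the cells with Pdcd1 and 6.36% of those without it in the IL-23 library, and in 2.80% (1.72% to 4.29%) against 10.5% in the unstimulated library. Nt5e was found in 1.62% of the cells with Pdcd1 and 6.30% of those without it in the IL-23 library, and in 3.22% against 10.0% in the unstimulated library. Nt5e and Cd200r4 were both highest in Ncr1+ cells among the CD3-negative classes. In the IL-23 library Nt5e was found in 6.99% (4.48% to 10.3%) of Neither cells with Cd200r4 and 5.86% of those without it. These intervals overlapped. In the unstimulated library Nt5e was found in 15.7% (13.0% to 18.6%) against 8.68%. The intervals there were apart, with Nt5e more frequent in cells with Cd200r4. Cd200r1 and Cd200r4 went together: Cd200r1 was found in 6.08% (3.75% to 9.23%) of the cells with Cd200r4 and 2.10% of those without it in the IL-23 library, and in 9.28% (7.22% to 11.7%) against 3.04% in the unstimulated library. The joint counts above are of Neither cells only. In Ncr1+, Ccr6+ and Trdc T cells, which are fewer, the intervals for these pairs overlapped in both libraries after thinning. In Trdc T cells of the IL-23 library Cd200r4 was found in 6.52% (1.37% to 17.9%) of the cells with Pdcd1 and 5.81% (2.82% to 10.4%) of those without. In Ncr1+ cells of that library Cd200r1 was found in 7.04% (3.43% to 12.6%) of the cells with Cd200r4 and 3.62% (2.60% to 4.90%) of those without. Without thinning, these Ncr1+ shares were 22.2% (18.3% to 26.5%) and 9.54% (7.63% to 11.7%). Intervals for that pair were then apart in Ncr1+ and Ccr6+ cells of both libraries. Those for Nt5e with Cd200r4 were apart in Ccr6+ cells of both and in Ncr1+ and Trdc T cells with IL-23. Those for Pdcd1 still overlapped, and unthinned counts also depend on cell depth. Cells of 1 library are not replicates, and the part of the bases shared by the CD200R transcripts in these joint counts was not tested.

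The ligands of these receptors were partly expressed by the same sorted cells. Of 16 ligand genes, 10 were measured in Ncr1+ cells, of which 1 was at least 1.5-fold higher and 0 lower. That gene was Pvr, which encodes CD155, the ligand of TIGIT and of the activating receptor CD226, with 59.5 CPM in the IL-23 library and 28.8 CPM in the unstimulated library. Pvr was also past 1.5-fold in Neither cells, with 41.2 CPM in the IL-23 library, against 23.8 CPM in the unstimulated library, and in Trdc T cells, with 35.6 CPM with IL-23 against 15.1 CPM unstimulated. Cd274, which encodes PD-L1, had 51.2 CPM in Ncr1+ cells of the IL-23 library and 34.2 CPM in those of the unstimulated library, within 1.5-fold. Cd48, which encodes the ligand of CD244, had 10.8 CPM with IL-23 and 9.46 CPM unstimulated in Ncr1+ cells and was highest in Trac T cells, at 59.5 CPM with IL-23 and 67.3 CPM unstimulated. In Trdc T cells 4 of 10 measured ligand genes were lower, among them Lgals3, the gene of galectin-3, with 17.2 CPM in the IL-23 library and 34.0 CPM in the unstimulated library. In Ccr6+ cells 0 of 6 were higher and 0 lower, and in Trac T cells 0 of 10 were higher and 3 lower. Of all measured genes, 10.6% were lower in Trdc T cells and 12.2% in Trac T cells, and 5.18% were higher in Ncr1+ cells.

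Most signalling adaptors of the receptors were level. Of 16 such genes, 12 were measured in Ncr1+ cells, 10 in Ccr6+ cells and 12 in Neither cells, with 1, 2 and 1 higher and 0 lower. Of all measured genes, 5.18%, 2.87% and 4.09% were higher in these classes, in that order. Rasa1, which encodes a Ras GTPase-activating protein, was higher in all 3, with 36.5 CPM in Ncr1+ cells of the IL-23 library, against 20.8 CPM in the unstimulated library. Sh2d1a, the gene of the adaptor SAP on which CD244 signals, was scarce in CD3-negative cells: it had 0.101 CPM in Ncr1+ cells of the IL-23 library and 0.145 CPM in those of the unstimulated library, against 51.0 CPM with IL-23 and 77.5 CPM unstimulated in Trac T cells. Its relative Sh2d1b1, which encodes EAT-2, had 2.42 CPM with IL-23 and 2.47 CPM unstimulated in Ncr1+ cells. Tyrobp had 29.2 CPM in Ncr1+ cells of the IL-23 library and 33.3 CPM in those of the unstimulated library, against 11.9 CPM with IL-23 and 13.0 CPM unstimulated in Ccr6+ cells. In Trac T cells Tyrobp had 1 UMI in the IL-23 library and 56 in the unstimulated library. There 4 of 14 measured adaptor genes were lower, beside 12.2% of all measured genes.

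Genes of transcription factors that act on these receptor genes in T cells differed in both directions. Of 15, 13 were measured in Ncr1+ cells, 2 higher and 4 lower, and in Neither cells 12 were measured, 2 higher and 4 lower. Of all measured genes, 5.18% were higher and 7.26% lower in Ncr1+ cells, and 4.09% higher and 3.89% lower in Neither cells. Batf, which encodes an AP-1 family factor, had 599 CPM in Ncr1+ cells of the IL-23 library and 24.4 CPM in those of the unstimulated library. Prdm1, the gene of Blimp-1, had 152 CPM in the IL-23 library, against 26.2 CPM in the unstimulated library. The lower genes in both classes were Nr4a1, Nr4a3, Nfatc1 and Maf; in Ncr1+ cells Nr4a1 had 232 CPM in the IL-23 library and 502 CPM in the unstimulated library, and Maf had 223 CPM with IL-23 and 375 CPM unstimulated. In T classes 3 were higher, namely Prdm1, Batf and Irf4, with 1 lower in Trdc T cells (Nr4a3) and 0 in Trac T cells. In Ccr6+ cells 3 of 12 were higher and 1 was lower. The shares of all measured genes that were higher were 8.01% in Trdc T, 7.83% in Trac T and 2.87% in Ccr6+ cells. Tox, the factor tied to PD-1 expression in exhausted T cells, stayed within 1.5-fold, with 78.1 CPM in Ccr6+ cells of the IL-23 library and 88.6 CPM in those of the unstimulated library, and 31.3 CPM with IL-23 and 34.3 CPM unstimulated in Ncr1+ cells.

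Among other co-inhibitory or paired receptor genes, a list that also holds the activating receptor gene Cd226, the direction of the members was not shared by all. Of these 16 genes, 8 were measured in Ncr1+ cells, 3 higher and 1 lower, beside 5.18% and 7.26% of all measured genes. The higher ones were Ctla4, with 378 CPM in the IL-23 library and 33.2 CPM in the unstimulated library, Cd226, at 92.9 CPM with IL-23 and 38.0 CPM unstimulated, and Lilrb4a, at 153 CPM with IL-23 and 55.7 CPM unstimulated. Cd200r2, a further CD200R family gene, was the lower one, with 5.05 CPM in the IL-23 library and 10.6 CPM in the unstimulated library, the direction of Cd200r1 and Cd200r4. In Neither cells 3 of 7 were higher and 0 lower, in Ccr6+ cells 2 of 5 were higher and 1 lower, in Trdc T cells 4 of 8 were higher and 3 lower, and in Trac T cells 1 of 11 was higher and 3 lower. The shares over all measured genes of these classes are given above. Among 9 SLAM family genes, Cd244a was the only one at least 1.5-fold higher in any of the 5 classes.

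For the 7 members with enough UMIs, the genes with the most similar pattern over the 10 class sums of both libraries were taken from 4010 genes by the Pearson correlation of log2(CPM + 1). Pdcd1 was nearest to Blk (r = 0.92), a Src-family kinase gene, with 139 CPM in Trdc T cells of the IL-23 library and 9.99 CPM in Ncr1+ cells, and then to Tasor and Ubn2. Cd244a was nearest to Suz12 (r = 0.94), a Polycomb subunit gene, Zswim6 and Malsu1. Nt5e was nearest to Gimap7 (r = 0.98), Sri and Acvr2a, and Cd200r4 to Irf7 (r = 0.97), Ctsw and Paip2. Cd160 was nearest to Dstn (r = 0.98), AW011738 and Pik3r1, Cd200r1 to Me2 (r = 0.98), Prrt1 and Lnpep, and Lag3 to Cldnd1 (r = 0.90), Tent5c and Arl6ip1. Some sums hold few UMIs: in Trdc T cells Cd244a had 3 UMIs with IL-23 and 1 unstimulated, and Lag3 had 1 with IL-23 and 0 unstimulated. The correlation also leaves out the size of differences: Suz12 ran from 104 to 204 CPM over the 10 sums, and Cd244a from 0.629 to 47.4 CPM. The 10 sums come from 2 libraries and are not independent, so these values are descriptions only.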

How the data were processed

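Per the labels' protocols, sorted eGFP+ cells of the small intestine were profiled with 10x Genomics droplets. The deposited values are whole-number UMI counts per gene and barcode, with no normalization by the authors. Per the submitters' processing notes the build was mm10 and the tool Cell Ranger 3.1.0. The file headers name cellranger 6.0.0, and which of them made the counts is not settled; no source used here names the annotation or the cell calling. The files hold 62291905 UMIs in 10440 barcodes for IL-23 and 58443284 UMIs in 11096 barcodes for unstimulated cells.

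Barcodes with under 500 genes or over 10% mitochondrial UMIs were left out, and no doublet caller was run. UMIs were summed per library and class (Python 3.11.15, numpy 2.4.6, pandas 2.3.3) and divided by the class total. Levels have exact Poisson intervals, shares Clopper-Pearson intervals and ratios exact conditional binomial intervals (scipy 1.17.1, 95%); 0.5 UMI was added to each sum before the log2 ratio, and 3 UMIs or cells set the limit for a count of 0. Thinning drew 2000 UMIs per cell without replacement (seed 7) and left out shallower cells. No test was made. The computation was checked on simulated counts, and 12 alternatives were tried, 1 of them chosen after seeing the data; TMM factors came from edgeR 4.0.16 (R 4.3.3). Figures were drawn with matplotlib 3.10.9. Of the ILC3 marker list, 1 gene is not reported here. The genes, lists, splits and classes were chosen with earlier results of these data known. Text names all 10 members, of the pathway lists mainly genes measured and past 1.5-fold (Cd274, Cd48, Entpd1, Tnfrsf14, Sh2d1b1, Tox and Ly9 were added after their values were seen), and 3 similar genes per member with at least 20 UMIs in 3 classes of each library, among genes with at least 50 CPM. Gene positions came from the GRCm38 annotation, matched by identifier, and promoters from RefSeq.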

Additional observations from a re-analysis of the deposited data

Results flagged for a closer look

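Cells outside the 5 classes, which no comparison above uses, also held Cd244a. The cells left out for having a CD3 chain without the genes that define a T class, 335 in the IL-23 library and 297 in the unstimulated library, had 18.8 CPM of it (13.8 to 25.0) in the IL-23 library, against 3.90 CPM (1.57 to 8.03) in the unstimulated library. It is listed because the level in unused cells exceeded that of the unstimulated library, and the intervals do not overlap. With 1 library per group the difference was not tested. Pdcd1 was lower with IL-23 in other left-out cells. In those with both Trdc and Trac it had 100 CPM (49.9 to 179) with IL-23 and 324 CPM (248 to 416) unstimulated. The IL-23 value came from 11 UMIs, 7 of them in 1 cell. In those with both Ncr1 and Ccr6 it had 32.8 CPM (21.0 to 48.8) with IL-23 and 88.3 CPM (63.9 to 119) unstimulated. These differences were not tested either.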

How the results depend on the processing

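No paired analysis was possible because each group is 1 library. Of 348 values from 12 alternatives for the 29 measured pairs, 339 moved by less than the counting interval, 9 moved by more and 0 reversed a pair past 1.5-fold; 22 crossed the 1.5-fold line. With no minimum level, 7 pairs were at least 1.5-fold higher and 21 at least 1.5-fold lower, against 3 and 12, because pairs with few UMIs then enter; the other alternatives gave 3 higher and 10 to 15 lower. Cd244a kept a log2 ratio between 2.56 and 2.80 in Ncr1+ cells, 1.73 and 2.95 in Ccr6+ cells, and 2.37 and 2.53 in Neither cells. TMM scaling shifted log2 ratios by 0.06 to 0.13 upward, over 0.1 in Ncr1+ and Ccr6+ cells, and placed Cd160 in Ncr1+ cells (-0.48) and Cd200r1 in Neither cells (-0.57) inside 1.5-fold. Requiring 2 UMIs of the class gene gave Cd200r1 in Ncr1+ cells -0.08. In Trac T cells, the thinnest class, Pdcd1 ranged from -0.85 to 0.36 and Tigit from -1.20 to -0.02; leaving out cells above the 95th percentile of UMIs gave Cd200r4 there -1.94. Few UMIs limit Lag3, Havcr2, Tigit and Btla most: in the single CD3-negative classes most of their differences lie within counting error. Over all CD3-negative cells, with those holding both Ncr1 and Ccr6, the ratio of IL-23 to unstimulated was 1.37 (1.11 to 1.70) for Lag3. It was 0.617 (0.447 to 0.843) for Havcr2, and the intervals of Tigit and Btla included 1. All 4 genes stayed under the 10 CPM required there.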
